A study of Mus musculus with 6 samples.

Results

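The 10 genes described here encode the elastic fibre of the artery wall and the enzymes that cross-link it. They were taken by gene symbol and comprise elastin (*Eln*), the fibrillins *Fbn1* and *Fbn2*, the microfibril-associated genes *Mfap4* and *Ltbp1*, the fibulins *Fbln5* and *Efemp2*, and the lysyl oxidases *Lox*, *Loxl1* and *Loxl2*. All 10 were found among the 55487 genes of the count table, and all 10 were among the 14531 genes with enough reads to be tested. RNA was sequenced from mPASMCs, commercially obtained cultured smooth muscle cells of the mouse pulmonary artery, transfected either with an siRNA against the long noncoding RNA *Snhg18* (si-*Snhg18*) or with a control siRNA (si-NC). There were 3 libraries per group, numbered 1 to 3 in each, and values for single libraries are listed below in that order. Nothing in the labels says that the libraries came from separate cultures, so p-values measure only the spread between these samples, which may be technical. The oxygen level of the sequenced cells and the time after transfection were not given in the sources used here.

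Elastic fibres give large arteries their recoil. Smooth muscle cells secrete tropoelastin onto a scaffold of fibrillin microfibrils, fibulins carry tropoelastin and lysyl oxidase to that scaffold, and lysyl oxidases, which are copper-dependent amine oxidases, convert lysine side chains so that elastin and collagen chains become cross-linked. Latent TGF-beta binding proteins tether inactive TGF-beta to the same microfibrils. Remodeling of this matrix in the pulmonary artery wall is a known feature of pulmonary hypertension.

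The libraries held between 18097718 and 25988746 counted reads, and a floor of 3 reads equalled 0.115 to 0.164 CPM (reads scaled to the library total, with TMM factors). This floor covers counting error only. *Snhg18*, the targeted gene, had a mean of 22.7 ± 0.710 CPM in si-NC, against 10.6 ± 0.590 CPM after the knockdown (SD over 3 libraries each), and it fell by 1.10 on the log2 scale (SE 0.10, edgeR adjusted p = 0.00727). Both libraries numbered 2 stood apart from the other libraries of their group in the genes described here. Values are therefore also given with the replicate number as a block and, for some members, without these libraries. The labels do not say that libraries of the same number belong together. In bulk RNA, fewer cells of a type and less RNA per cell cannot be told apart.

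Most of the set was lower after the knockdown of *Snhg18*, but no member passed the test without the block. Of the 10 members, 8 were lower and 2 were higher in si-*Snhg18*, against 49.2% of all tested genes that were lower. None of the 10 had an adjusted p under 0.05 with edgeR's quasi-likelihood test, against 7.36% of all tested genes. At an unadjusted p under 0.05 there were 4 (*Fbn1*, *Efemp2*, *Mfap4* and *Ltbp1*), against 24.9% of all genes, and limma-voom called 0 members (7.13% of all genes tested). DESeq2 called 2 (*Mfap4* and *Ltbp1*), against 7.38% of the 25015 genes entered, which include genes that the read filter of the other fits removed. With the replicate number as a block, 6 of the 10 fell (*Fbn1*, *Fbln5*, *Efemp2*, *Lox*, *Mfap4* and *Ltbp1*) and none rose. The block also raised the share of all tested genes called to 27.2%, with 13.6% lower. The median log2 fold change of the members was −0.42 without the block and −0.60 with it, beside 0.01 and 0.00 over all tested genes.

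**Figure D1:**
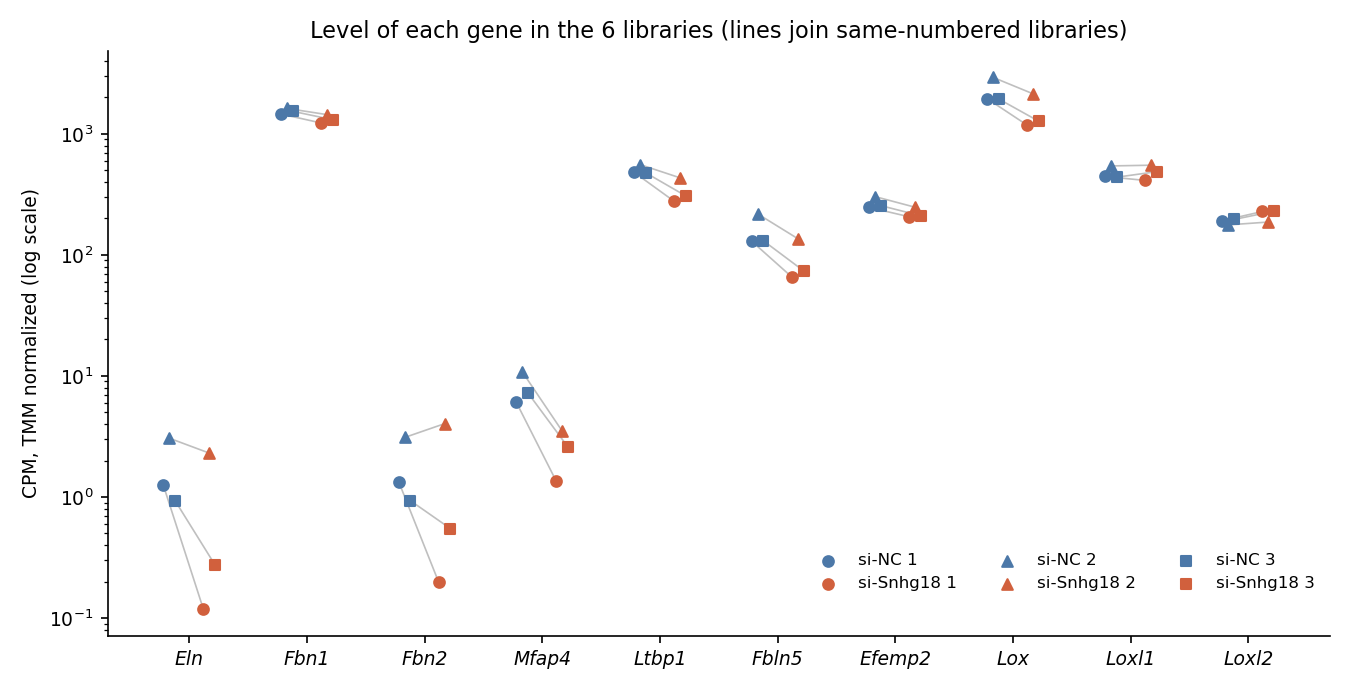
TMM-normalized CPM (log scale) of the 10 genes in the 3 si-NC libraries (blue) and the 3 si-*Snhg18* libraries (orange), with 1 marker shape per library number and lines joining libraries of the same number. The lines of *Mfap4*, *Ltbp1*, *Fbln5* and *Lox* all descend, *Loxl1* is level, *Loxl2* ascends slightly, and the triangles (library 2) of *Eln* and *Fbn2* lie far above the other points.

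The members spanned a wide range of levels. Scaled per length of exon (RPKM), *Lox* led in si-NC at 509 ± 127 RPKM (SD, n = 3), followed by *Loxl1* (144 ± 17.8), *Fbn1* (128 ± 6.86), *Efemp2* (102 ± 11.5), *Ltbp1* (75.7 ± 6.82), *Loxl2* (35.4 ± 1.90), *Fbln5* (27.4 ± 8.73), *Mfap4* (4.66 ± 1.45), *Eln* (0.454 ± 0.298) and *Fbn2* (0.162 ± 0.104). Between neighbours in this order, the ranges of the 3 si-NC libraries overlapped for *Loxl1* and *Fbn1*, for *Loxl2* and *Fbln5*, and for *Eln* and *Fbn2*, whereas the other neighbours were separated. These cells thus carried abundant RNA of the cross-linking enzyme and of the fibrillin-1 scaffold but very little of elastin itself. The 10 genes together took 0.488%, 0.642% and 0.492% of the reads in si-NC and 0.351%, 0.529% and 0.392% in si-*Snhg18*. Library 2 had the highest share in each group, and the groups overlapped.

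*Eln* (ENSMUSG00000029675, chromosome 5 from 134702593 to 134747323, minus strand, GRCm38) encodes tropoelastin, the monomer of the elastic core. It had 29, 75 and 22 reads in si-NC and 3, 60 and 5 reads in si-*Snhg18*. These counts equal 1.25, 3.06 and 0.931 CPM in si-NC and 0.119, 2.31 and 0.274 CPM in si-*Snhg18*. Library 2 was far above libraries 1 and 3 in both groups, so that the groups overlapped, and the 3 reads of si-*Snhg18* 1 sit at the floor (95% Poisson interval 0.619 to 8.77 reads, counting error only). The log2 fold change was −0.92 (SE 1.01, 95% confidence interval −3.34 to 1.49, edgeR adjusted p = 0.615). With the block it was −1.37 (adjusted p = 0.0940), and the log2 ratios within numbers 1 to 3 were −3.40, −0.41 and −1.77. Without both libraries numbered 2, *Eln* fell by 2.52 on the log2 scale (edgeR adjusted p = 0.0182). *Eln* RNA was thus scarce in every library. The size of its difference depended on single libraries, and leaving out 1 library at a time moved the log2 fold change from −3.19 (without si-*Snhg18* 2) to −0.25 (without si-NC 2), with −0.39 without si-*Snhg18* 1 and −0.52 without si-*Snhg18* 3.

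*Fbn1* (ENSMUSG00000027204, chromosome 2 from 125300594 to 125507993, minus strand) encodes fibrillin-1, the main structural protein of microfibrils. It was measured at 1457, 1621 and 1533 CPM in si-NC and at 1229, 1441 and 1307 CPM in si-*Snhg18*. All 3 si-*Snhg18* libraries were below all 3 si-NC libraries. This was a log2 fold change of −0.21 (SE 0.08, edgeR adjusted p = 0.179), and with the block −0.22 (adjusted p = 0.0215). The differences within the 3 numbers were alike in size, at −0.25, −0.17 and −0.23 on the log2 scale. Fibrillin-1 RNA was thus modestly lower, and with all 6 libraries the call depended on the block. Without both libraries numbered 2, *Fbn1* was called with no block (log2 fold change −0.24, edgeR adjusted p = 0.0399). The same held without si-*Snhg18* 2 alone (−0.28, edgeR adjusted p = 0.0441).

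*Fbn2* (ENSMUSG00000024598, chromosome 18 from 58008623 to 58210487, minus strand) encodes fibrillin-2, which is used mainly in developing tissue. It had 31, 76 and 22 reads in si-NC and 5, 105 and 10 reads in si-*Snhg18*. As for *Eln*, library 2 held most of the reads of each group, and here it was higher in si-*Snhg18* (4.03 CPM) than in si-NC (3.10 CPM), whereas libraries 1 and 3 were lower. The log2 fold change of −0.15 had a standard error of 1.02 (95% confidence interval −2.59 to 2.30, edgeR adjusted p = 0.946, with the block 0.408), so that no direction could be given beyond the spread between libraries. Leaving out si-NC 2, si-*Snhg18* 1 or si-*Snhg18* 3 turned its sign, with log2 fold changes of 0.51, 0.38 and 0.24.

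*Mfap4* (ENSMUSG00000042436, chromosome 11 from 61485431 to 61488900, plus strand) encodes a microfibril-associated glycoprotein that binds tropoelastin and fibrillin. It had the largest log2 fold change of the set with all 6 libraries, with and without the block. Without both libraries numbered 2, *Eln* had a larger one (−2.52 against −1.79). Without si-*Snhg18* 2 alone, *Eln* (−3.19) and *Fbn2* (−2.32) had larger ones than *Mfap4* (−2.06). Its levels were 6.04, 10.8 and 7.20 CPM in si-NC and 1.34, 3.50 and 2.57 CPM in si-*Snhg18*, from 140, 265 and 170 reads and from 34, 91 and 47 reads. The groups did not overlap, and the mean of si-*Snhg18* was 30.8% of that of si-NC. For *Mfap4* the log2 fold change was −1.70 (SE 0.39, 95% confidence interval −2.64 to −0.76, edgeR adjusted p = 0.0528), and with the block −1.74 (adjusted p = 0.00151). DESeq2 gave an adjusted p of 0.000472. *Mfap4* was lower within each number, at −2.17, −1.63 and −1.48 on the log2 scale. It overlaps *Mapk7* on the opposite strand by 89 bases, and *Mapk7* had 821 to 1281 reads per library and a log2 fold change of 0.15 (adjusted p = 0.425). The strand setting of the counting was not given in the sources used here.

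*Ltbp1* (ENSMUSG00000001870, chromosome 17 from 75005568 to 75392512, plus strand) encodes latent TGF-beta binding protein 1, which attaches the latent growth factor to microfibrils. It was at 481, 557 and 476 CPM in si-NC and at 277, 433 and 307 CPM in si-*Snhg18*. The groups did not overlap, and the mean went from 505 ± 45.5 to 339 ± 82.8 CPM (SD, n = 3), or 67.2% of si-NC. The log2 fold change was −0.57 (SE 0.17, 95% confidence interval −0.99 to −0.15, edgeR adjusted p = 0.105), and with the block −0.60 (adjusted p = 0.00316). Of the 10 members, 3 had groups that did not overlap (*Fbn1*, *Mfap4* and *Ltbp1*), close to the 30.9% of all tested genes with such a separation.

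*Fbln5* (ENSMUSG00000021186, chromosome 12 from 101746565 to 101819055, minus strand) encodes fibulin-5, which links tropoelastin to cells and to microfibrils. It was measured at 129.6, 218 and 131 CPM in si-NC and at 65.8, 136 and 73.9 CPM in si-*Snhg18*. Library 2 was highest in each group, and si-*Snhg18* 2 lay above si-NC 1 and 3, so that the groups overlapped. Within each number, however, it was lower, at −0.98, −0.68 and −0.82 on the log2 scale. The log2 fold change came to −0.79 (SE 0.34, edgeR adjusted p = 0.207) without the block and −0.82 (adjusted p = 0.000753) with it, the smallest adjusted p of the set under the block.

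*Efemp2* (ENSMUSG00000024909, chromosome 19 from 5473954 to 5482517, plus strand) encodes fibulin-4, which binds lysyl oxidase and brings it to tropoelastin. Its levels were 246, 303 and 255 CPM in si-NC and 206, 247 and 209.8 CPM in si-*Snhg18*. The groups overlapped only because si-*Snhg18* 2 lay just above si-NC 1, and the differences within the numbers were nearly equal at −0.26, −0.29 and −0.28 on the log2 scale. Across the groups the log2 fold change was −0.28 with and without the block (SE 0.11 without it), and edgeR's adjusted p was 0.191 without the block and 0.00971 with it. *Efemp2* overlaps *Mus81* on the opposite strand by 173 bases, and *Mus81* had 383 to 498 reads per library.

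*Lox* (ENSMUSG00000024529, chromosome 18 from 52516067 to 52529867, minus strand) encodes lysyl oxidase, the founding enzyme of its family and the most abundant transcript of the set per length. It was at 1953, 2928 and 1937 CPM in si-NC and at 1181, 2141 and 1269 CPM in si-*Snhg18*. Again si-*Snhg18* 2 exceeded si-NC 1 and 3, whereas each si-*Snhg18* library was below the si-NC library of its own number. The mean of si-*Snhg18* was 67.3% of that of si-NC. Without the block its log2 fold change was −0.57 (SE 0.27, 95% confidence interval −1.23 to 0.09, edgeR adjusted p = 0.258), and with the block −0.60 (adjusted p = 0.00139), with −0.73, −0.45 and −0.61 within the numbers. The antisense gene *Gm41724* overlaps *Lox* by 1207 bases and had 155 to 346 reads per library and a log2 fold change of −0.66 (adjusted p = 0.0592).

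*Loxl1* (ENSMUSG00000032334, chromosome 9 from 58287738 to 58313186, minus strand) encodes the lysyl oxidase that is most closely tied to elastic fibre upkeep. It was at 445, 543 and 438 CPM in si-NC and at 412, 550.3 and 487 CPM in si-*Snhg18*. The groups overlapped fully, and the differences within the numbers went either way, at −0.11, 0.02 and 0.15 on the log2 scale. In edgeR's fit the log2 fold change was 0.02 (SE 0.13, adjusted p = 0.934), and the 95% confidence interval ran from −0.30 to 0.35 without the block and from −0.13 to 0.17 with it. Its estimate changed sign when si-NC 1, si-NC 3 or si-*Snhg18* 2 was left out.

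*Loxl2* (ENSMUSG00000034205, chromosome 14 from 69609068 to 69695834, plus strand) encodes a lysyl oxidase-like enzyme known for cross-linking basement membrane collagen. It was at 192, 177 and 196 CPM in si-NC and at 228, 187 and 229.6 CPM in si-*Snhg18*. Unlike the other 9 members, it was lowest in library 2 of each group, and it was the 1 member that was higher in si-*Snhg18* within all 3 numbers (0.25, 0.08 and 0.23 on the log2 scale). Its log2 fold change of 0.19 did not pass the test without the block (SE 0.10, edgeR adjusted p = 0.294) or with it (95% confidence interval 0.04 to 0.33, adjusted p = 0.0588). Without both libraries numbered 2 it was 0.24 (adjusted p = 0.0239).

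**Figure D2:**
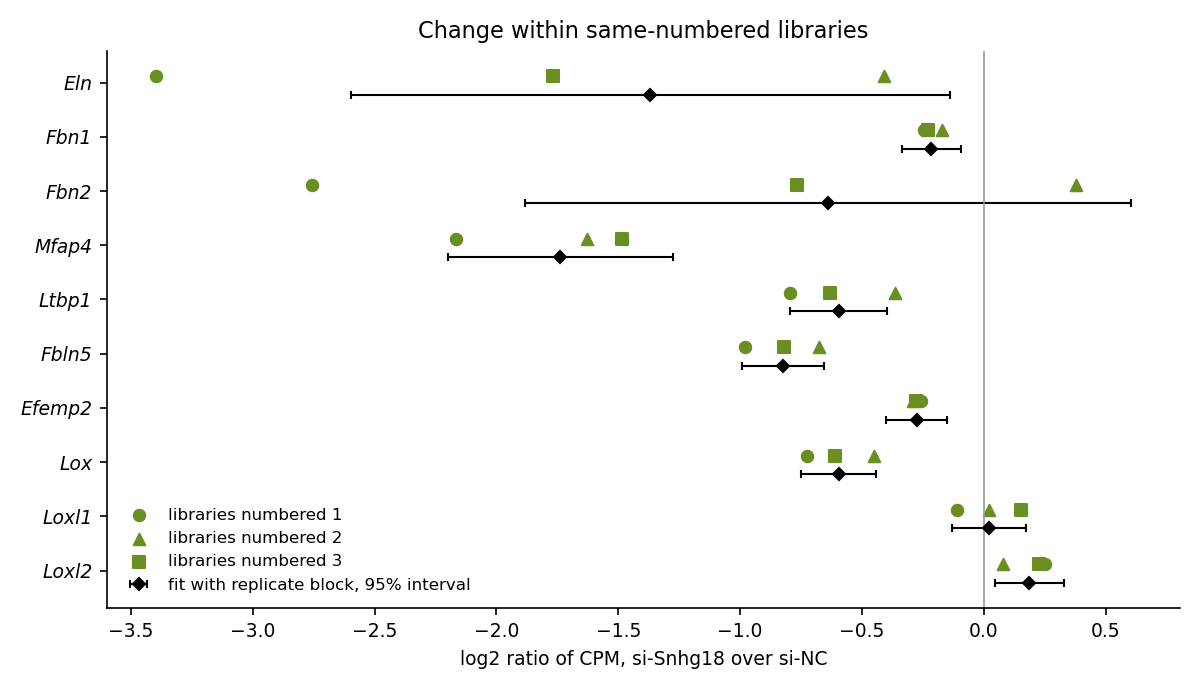
The log2 ratio of CPM, si-*Snhg18* over si-NC, within libraries of the same number (green, 1 marker shape per number) and the log2 fold change of the edgeR fit with the replicate block with its 95% confidence interval (black). Of the 10 genes, 7 lie below 0 in all 3 numbers, *Loxl2* lies above 0 in all 3, and *Eln* and *Fbn2* scatter most. The share of all tested genes that lie below 0 in all 3 numbers is not given here.

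Library 2 set the spread of these genes. In 9 of the 10 members, all but *Loxl2*, the library numbered 2 was the highest of its group in both groups, against 32.2% of all tested genes. Relative to the mean of libraries 1 and 3, library 2 held 1.51 times the *Lox* level in si-NC and 1.75 times in si-*Snhg18*. For *Fbln5* these ratios were 1.68 and 1.95, and for *Mfap4* 1.63 and 1.78. They were far larger for the scarce transcripts, at 2.80 and 11.8 for *Eln* and 2.73 and 10.8 for *Fbn2*, and close to 1 for *Fbn1* (1.08 and 1.14). Without both libraries numbered 2, with 2 libraries left per group, edgeR called 8 members, all but *Fbn2* and *Loxl1*, and 4020 genes in all, with *Loxl2* the 1 member that rose. Without si-*Snhg18* 2 alone, it called these 8 members and 3282 genes, whereas leaving out any other single library left 0 members called. Those fits also called few genes of any kind. They called 1.06% of all tested genes without si-NC 2, 2.16% without si-*Snhg18* 1, and 0% without si-NC 1, si-NC 3 or si-*Snhg18* 3. What sets the libraries numbered 2 apart is not stated in the labels and was not tested.

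**Figure D3:**
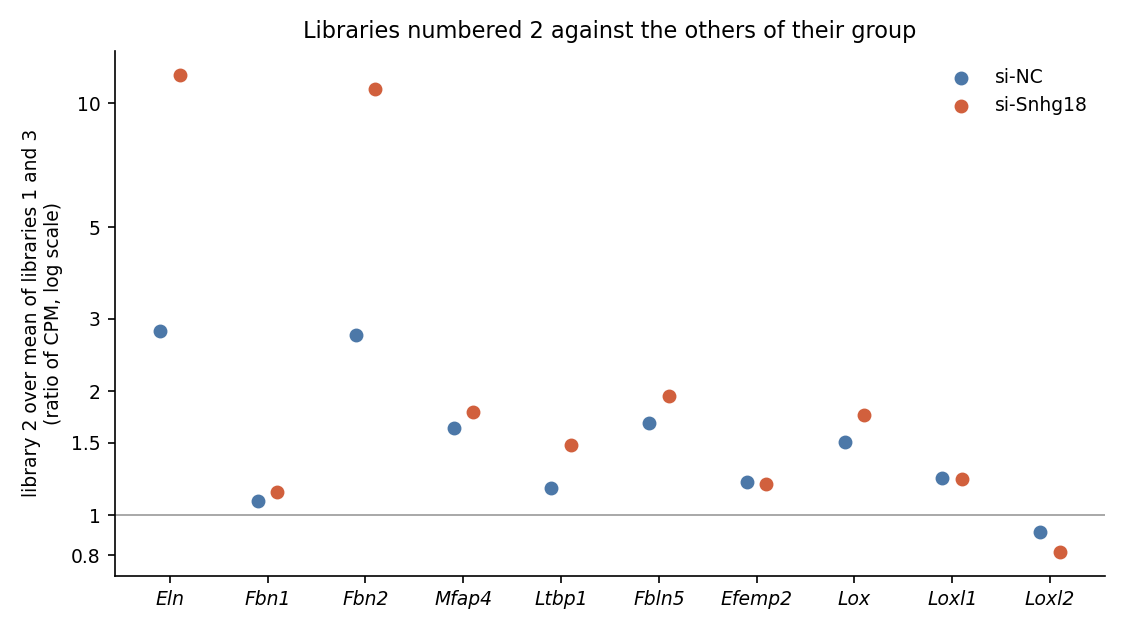
The CPM in library 2 divided by the mean CPM of libraries 1 and 3 (ratio, log scale) for si-NC (blue) and si-*Snhg18* (orange), with a line at 1. All genes but *Loxl2* lie above the line in both groups, and *Eln* and *Fbn2* reach 11.8 and 10.8 in si-*Snhg18*.

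*Lox* was lower within each number while *Loxl1* was level and *Loxl2* was higher. Lysyl oxidase family members act on overlapping substrates, so their levels are given here as shares of the family's summed RPKM, with *Loxl3* and *Loxl4*, which were added after their values were seen. *Lox* made up 64.4% ± 5.49 of the family sum in si-NC and 53.5% ± 9.24 in si-*Snhg18* (SD, n = 3), with ranges that overlapped (60.6% to 70.7% and 46.1% to 63.9%). The share of *Loxl1* went from 18.5% ± 0.665 to 23.4% ± 2.43, and these ranges did not overlap (17.8% to 19.1% and 21.8% to 26.2%). *Loxl4* was the least even member, at 3.45% to 12.2% in si-NC and 3.92% to 21.4% in si-*Snhg18*, and it was lowest in library 2 of each group. The family sum was 783 ± 125 RPKM in si-NC and 629 ± 106 RPKM in si-*Snhg18*.

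Ratios of related members within each library were compared with exact permutation tests, which cannot give a two-sided p under 0.1 with 3 libraries per group. The *Loxl1* to *Lox* ratio per length was 0.287 in si-NC and 0.441 in si-*Snhg18*, and its log2 value was −1.70, −1.99 and −1.71 in si-NC and −1.08, −1.52 and −0.94 in si-*Snhg18*. The difference of 0.62 on the log2 scale separated the groups without overlap (exact permutation p = 0.1, adjusted over 4 ratios 0.4). The *Loxl2* to *Lox* ratio differed by 0.78 and the *Efemp2* to *Fbln5* ratio by 0.55 on the log2 scale, both with overlap (exact permutation p = 0.3 each, adjusted 0.4). Both were higher in si-*Snhg18* within each of the 3 numbers. An exact sign-flip test within the numbers gave p = 0.25 for each, the smallest value that 3 pairs allow. The *Fbn2* to *Fbn1* ratio had a difference of −0.83 that went either way within the numbers (exact permutation p = 0.6, adjusted 0.6).

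**Figure D4:**
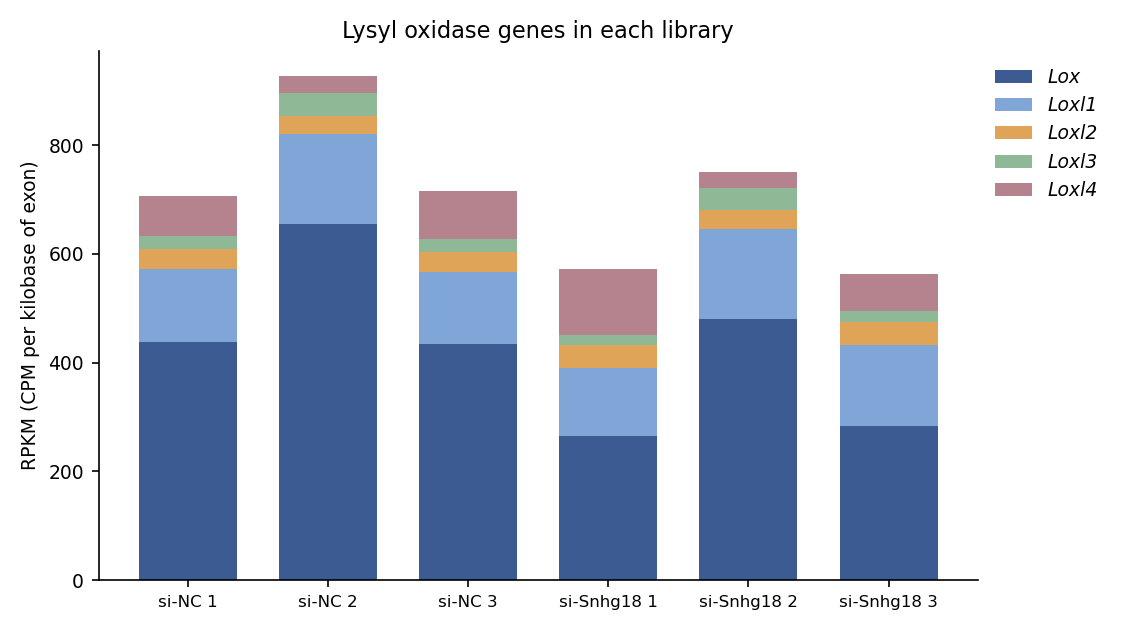
Stacked RPKM (CPM per kilobase of exon) of the 5 lysyl oxidase genes in each of the 6 libraries. The *Lox* segment is the largest in every library and is shorter in si-*Snhg18* 1 and 3 than in any si-NC library, while the *Loxl1* segment is of similar height in both groups.

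The sequences before the gene starts are shown for 4 of the members that fell with the block, taking the gene starts of RefSeq. RefSeq windows of GRCm38.p6 matched 4 of the 10 members (*Fbn1*, *Fbln5*, *Efemp2* and *Ltbp1*), with 8 windows for alternative starts, and the window nearest to the start of each gene in the count table is printed for each, 250 bases long and read 5′ to 3′ on the strand of the gene. Capitals mark the GC box, GGGCGG or CCGCCC on the other strand, which is the core of the site bound by Sp1. The windows are chr2:125506439-125506688 (minus strand) for *Fbn1*, chr12:101819120-101819369 (minus strand) for *Fbln5*, chr19:5473696-5473945 (plus strand) for *Efemp2* and chr17:75005279-75005528 (plus strand) for *Ltbp1*. The *Fbn1* window lies inside the span of the gene in the count table, which begins further upstream than the RefSeq start, so it is not the sequence before the start of the gene as counted.
Fbn1: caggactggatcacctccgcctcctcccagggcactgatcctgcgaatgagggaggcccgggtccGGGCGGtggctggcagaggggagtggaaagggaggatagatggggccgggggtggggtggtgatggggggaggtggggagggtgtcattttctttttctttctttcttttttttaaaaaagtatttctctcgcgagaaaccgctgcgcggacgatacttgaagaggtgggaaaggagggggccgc
Fbln5: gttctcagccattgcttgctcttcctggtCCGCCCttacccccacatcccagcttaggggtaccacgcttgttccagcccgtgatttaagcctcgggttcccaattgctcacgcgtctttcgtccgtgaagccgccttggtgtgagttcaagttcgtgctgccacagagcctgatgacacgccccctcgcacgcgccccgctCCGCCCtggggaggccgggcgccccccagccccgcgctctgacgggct
Efemp2: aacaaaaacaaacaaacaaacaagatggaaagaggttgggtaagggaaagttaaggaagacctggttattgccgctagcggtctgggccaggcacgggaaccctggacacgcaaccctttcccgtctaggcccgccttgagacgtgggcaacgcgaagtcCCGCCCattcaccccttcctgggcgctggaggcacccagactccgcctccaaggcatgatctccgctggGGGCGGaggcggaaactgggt
Ltbp1: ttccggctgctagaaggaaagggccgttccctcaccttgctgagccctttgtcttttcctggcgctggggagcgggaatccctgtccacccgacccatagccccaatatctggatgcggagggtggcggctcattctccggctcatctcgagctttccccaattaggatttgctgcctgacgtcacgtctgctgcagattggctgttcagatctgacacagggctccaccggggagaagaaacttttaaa

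The windows had a GC content of 59.2% (*Fbn1*), 65.2% (*Fbln5*), 59.2% (*Efemp2*) and 56.8% (*Ltbp1*), above the median of 52.4% over 32851 windows of the same length. The second windows of *Fbln5* (49.6%) and *Ltbp1* (50.8%) were below this median and held no GC box, and the other 2 windows of *Efemp2*, which overlap each other, had 75.6% and 78.8% with 5 GC boxes each. In the printed windows, *Fbn1* held 1 GC box, *Fbln5* and *Efemp2* held 2 each and *Ltbp1* none, and 32.7% of all windows held at least 1. The motif CCAAT was found 3 times in *Ltbp1* and 1 time in *Fbln5* (33.8% of all windows). The core of the hypoxia response element, ACGTG, was found 1 time each in *Efemp2* and *Ltbp1* (16.6%). The motifs TATAAA (12.4% of all windows), GGAATG (the TEAD motif, 12.6%) and TGANTCA (the AP-1 motif, 6.75%) were not found in any of the 8 windows. All motifs were searched on both strands. They do not contain each other, but neighbouring hits can share bases, and a match is a description of the letters, not a site of binding.

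Other genes of the elastic fibre pathway were taken as 4 lists with 55 genes in all, of which 46 were tested. Without the block, 6 of the 46 passed the test (13.0%), beside 7.36% of all tested genes, and with the block 20 passed (43.5%), beside 27.2%.

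Among 21 other elastic fibre components, 17 were tested, and 4 of these were higher and 13 lower in si-*Snhg18*, with a median log2 fold change of −0.18. The other 4 had at most 17 reads in any library. *Ltbp2*, whose protein binds microfibrils and fibulin-5, fell from 393 ± 13.6 to 258 ± 3.79 CPM (log2 fold change −0.61, SE 0.06, edgeR adjusted p = 0.00761). *Mfap2*, a small glycoprotein of the microfibril, fell from 10.2 ± 0.693 to 4.51 ± 0.911 CPM (log2 fold change −1.17, SE 0.18, adjusted p = 0.0200). *Ltbp2* was nearly the same in the 3 libraries of each group, and library 2 did not stand apart in it. *Thsd4*, which promotes microfibril assembly, had a log2 fold change of −1.01 (adjusted p = 0.0520, with the block 0.00951). *Emilin1*, a glycoprotein between elastin and microfibrils, was at 281 ± 3.39 CPM in si-NC and 325 ± 15.4 CPM in si-*Snhg18*, a log2 fold change of 0.21 that passed only with the block (adjusted p = 0.10 without and 0.0279 with it). The most abundant genes of the list per length were *Fbln2* (log2 fold change −0.21, adjusted p = 0.187, with the block 0.0219) and *Fn1*, fibronectin (−0.03, adjusted p = 0.918, with the block 0.660). With the block, 2 of the 17 rose and 7 fell, beside 27.2% of all tested genes called in either direction and 13.6% called lower.

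Lysyl oxidase is made as a proenzyme that is cleaved by bone morphogenetic protein 1, an astacin protease, and is loaded with copper in the Golgi. Of 8 genes of this maturation, 7 were tested, and the median log2 fold change was 0.11. *Bmp1* rose from 269.8 ± 17.3 to 369 ± 4.12 CPM (log2 fold change 0.45, SE 0.07, edgeR adjusted p = 0.0196, with the block 0.00216). *Pcolce*, an enhancer of that protease on procollagen, was at 492 ± 7.52 and 432 ± 21.1 CPM (log2 fold change −0.19, adjusted p = 0.138, with the block 0.0435). The copper transporters *Slc31a1* and *Atp7a* had log2 fold changes of 0.22 and 0.18 that passed neither test (adjusted p = 0.255 and 0.428, with the block 0.0574 and 0.314). *Bmp1* RNA thus rose where *Lox* RNA was lower. *Tll1*, also in this list, had a log2 fold change of −0.30 without the block and −0.44 with it (edgeR adjusted p = 0.720 and 0.118). The amount of active enzyme was not measured.

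Of 13 elastin-degrading proteases and their inhibitors, 9 were tested, with a median log2 fold change of 0.00. *Timp3*, an inhibitor of metalloproteinases that stays bound to the matrix, fell from 1209 ± 121 to 890 ± 46.7 CPM (log2 fold change −0.44, SE 0.09, edgeR adjusted p = 0.0398), a call that was lost with library totals without TMM factors. *Timp2* was at 2645 ± 457 and 1616 ± 351 CPM (log2 fold change −0.71, SE 0.19, adjusted p = 0.0722, with the block 0.000602). *Timp1* was at 782 and 696 CPM (log2 fold change −0.17, adjusted p = 0.392, with the block 0.119). The cysteine protease *Ctsl* had a log2 fold change of 0.19 (adjusted p = 0.142, with the block 0.0465), and its inhibitor *Cst3* one of 0.18 (0.242 and 0.0546). The genes of this list called lower were thus *Timp3* without the block, and *Timp2* and *Timp3* with it. The other metalloproteinase inhibitors of the list were *Timp1*, called in neither fit, and *Timp4*, which had at most 1 read and was not tested. Of all tested genes, 13.6% were called lower with the block.

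All 13 genes of latent TGF-beta and its activation were tested, 4 were higher and 9 lower, and the median log2 fold change was −0.24. *Itgav*, the alpha subunit of the integrins that release TGF-beta from its latent complex, fell from 591 to 455 CPM (log2 fold change −0.38, SE 0.08, edgeR adjusted p = 0.0421). *Tgfbr3*, the co-receptor betaglycan, fell by 0.32 on the log2 scale (SE 0.07, adjusted p = 0.0415). Without TMM factors, 1 gene of this list was called in place of 2. *Thbs1*, thrombospondin-1, which activates latent TGF-beta, was the most abundant gene of the list, at 11825 ± 1484 CPM in si-NC and 5727 ± 2205 CPM in si-*Snhg18* (log2 fold change −1.05, SE 0.27, adjusted p = 0.0694, with the block 0.00160). *Lrrc32*, which holds latent TGF-beta at the cell surface, was at 759 ± 205 and 386 ± 188 CPM (log2 fold change −0.97, adjusted p = 0.164, with the block 0.00272). The ligand *Tgfb2* was low, at 0.856 and 1.73 CPM, and did not pass either test (log2 fold change 1.02, adjusted p = 0.157, with the block 0.105). With the block, 6 of the 13 fell and none rose, beside 13.6% of all tested genes that were called lower with it. The member *Ltbp1*, which holds latent TGF-beta in the matrix, fell in the same fit.

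**Figure D5:**
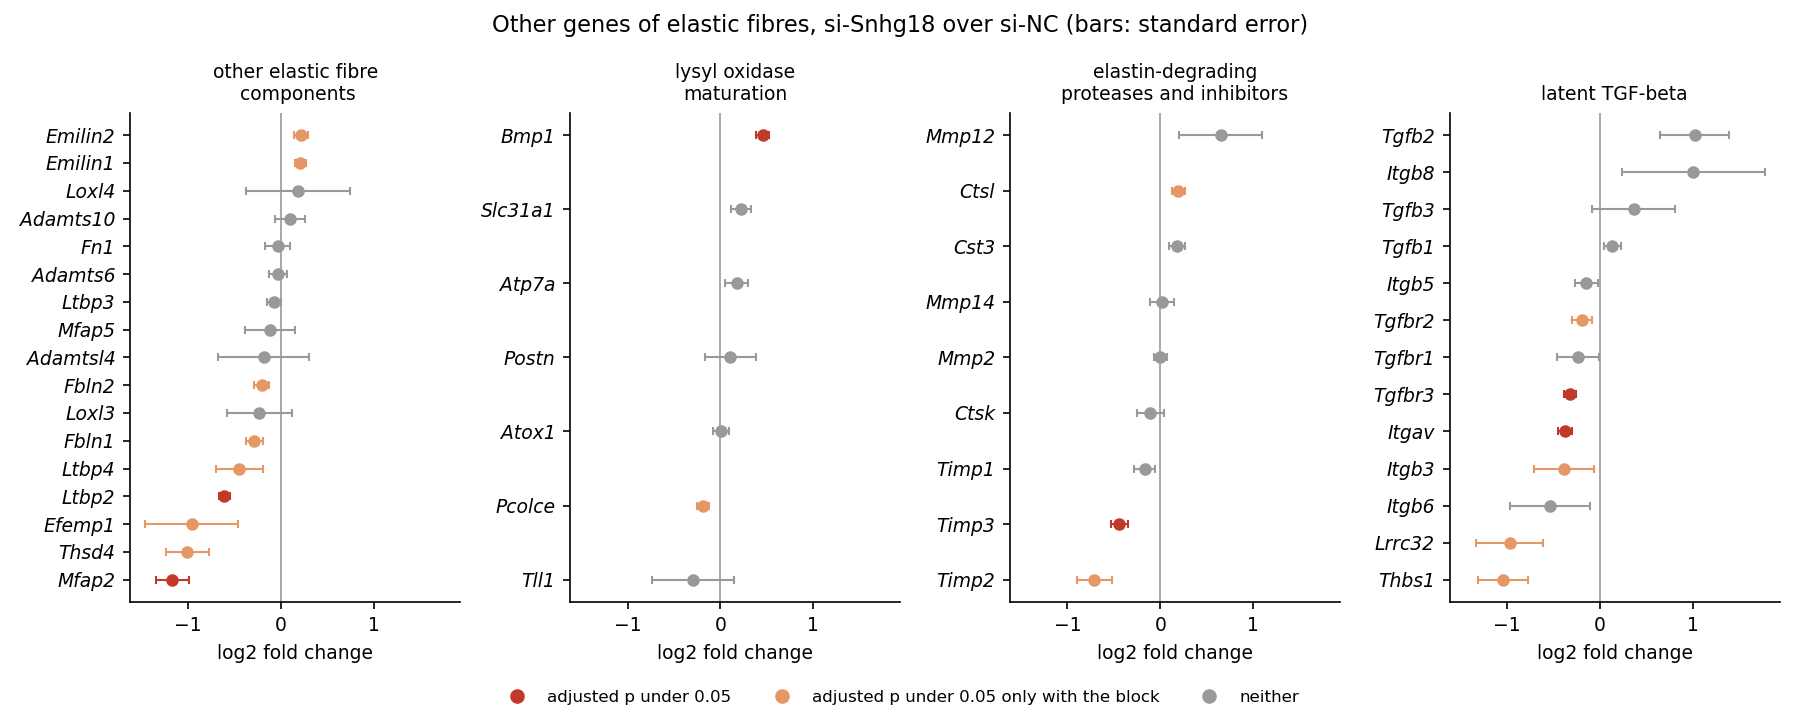
The log2 fold change (si-*Snhg18* over si-NC) of the 46 tested genes in the 4 lists, with bars for the standard error. Red points passed the edgeR test without the block (6 genes), orange points only with it, and grey points passed neither.

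Markers of cell types were compared in the same libraries. All 8 smooth muscle markers were tested, with a summed level of 1748 to 1894 CPM in si-NC and 1201 to 1849 CPM in si-*Snhg18*. Of these, 2 were higher and 6 lower, 1 passed the test without the block and 4 with it, all lower. Of all tested genes, 7.36% passed without the block in either direction, and 13.6% were called lower with it. *Tagln* fell from 684 to 480.3 CPM (log2 fold change −0.51, SE 0.11, edgeR adjusted p = 0.0427). *Acta2* had a log2 fold change of −0.22 (adjusted p = 0.594), *Cnn1* −0.48 (0.0812) and *Myh11*, the marker of mature smooth muscle, −0.60 (0.297), and with the block *Cnn1* (0.0113) and *Myh11* (0.0207) fell and *Acta2* did not pass (0.148). The other markers had log2 fold changes of −1.79 for *Des* (adjusted p = 0.0916, with the block 0.00154), −0.23 for *Lmod1*, 0.00 for *Smtn* and 0.39 for *Myocd*. *Myh11* was low at 18.6 ± 3.18 CPM in si-NC, whereas *Pdgfra*, a fibroblast marker, was at 476 ± 43.8 CPM.

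Of the 6 fibroblast markers, 5 were tested, with a summed level of 512 to 583 CPM in si-NC and 369.5 to 504 CPM in si-*Snhg18*, which did not overlap, and *Pi16* had at most 3 reads. None of the 5 passed the test without the block (edgeR), and *Pdgfra*, which holds most of the sum, passed with it (log2 fold change −0.35, adjusted p = 0.0112). Of the 5, 2 were higher (*Dpt* at 0.28 and *Dcn* at 0.06 on the log2 scale) and 3 were lower, so that *Pdgfra* carried the lower sum. The 7 leukocyte markers summed to 115 to 158 CPM in si-NC and 74.7 to 115 CPM in si-*Snhg18*, mostly from *Cd53* (log2 fold change −1.10, adjusted p = 0.00727), while *Ptprc* had at most 8 reads and *Adgre1* none. Of the 5 leukocyte markers tested, 3 were higher and 2 lower, with a median log2 fold change of 0.35, and *Cd14* (0.59, edgeR adjusted p = 0.539, with the block 0.00369), *Lyz2* (0.49) and *Cd68* (0.35) were higher. The 7 endothelial markers summed to 13.1 to 14.5 CPM and 13.6 to 16.3 CPM, with at most 14 reads for *Pecam1*. The 4 mesothelial markers summed to 11.3 to 20.4 CPM and 5.65 to 9.72 CPM, mostly from *Msln*, with *Wt1* at most at 1 read. *Msln*, the 1 marker of these that was tested, had a log2 fold change of −1.03 (edgeR adjusted p = 0.0839, with the block 0.00188). The 4 epithelial markers were at or near 0 in every library, at most 0.127 CPM in sum. The part of the fibroblast, mesothelial, leukocyte and endothelial markers in the differences of the elastic fibre genes was not tested. *Pdgfra*, *Cd53* and the other markers named here besides *Tagln*, *Acta2*, *Cnn1* and *Myh11* were chosen after their values were seen.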

How the data were processed

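RNA-seq was analysed in 6 libraries of mPASMCs, 3 transfected with si-NC and 3 with si-*Snhg18*, grouped by the sample labels. Libraries were prepared with the TruSeq Stranded mRNA kit. The authors deposited unnormalized whole-number read counts per gene with exon lengths and GRCm38 positions. The submitters' processing notes name HISAT2 and mm10, while the counting program and its strand setting were not given in the sources used here. Reads shared by related or overlapping genes may therefore be divided in a way the counts do not show.

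Counts were filtered with filterByExpr (minimum count of 10), normalized by TMM and tested with glmQLFit and glmQLFTest in edgeR 4.0.16 (R 4.3.3), and p-values of the 14531 genes kept were adjusted by Benjamini-Hochberg, with a threshold of 0.05. RPKM is CPM per kilobase of exon. Permutation tests were exact and two-sided, and the t quantiles of the confidence intervals came from SciPy 1.17.1. Promoter windows came from RefSeq tables. Members and gene lists were chosen with earlier results of these data known. The genes named were the members, *Snhg18*, up to 4 genes with the smallest p and the 2 with the highest RPKM in each list, and 4 smooth muscle markers. Any other gene named was chosen after its values were seen.

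The pairing of libraries comes from their repeat numbers. Deviations from the group means over 14531 genes correlated at r = 0.410, 0.742 and 0.359 between libraries numbered 1, 2 and 3, which met the rule for pairing (each above 0.1), so values with the replicate block are given. This is a description across genes, which are not independent, and si-NC 3 correlated more closely with si-*Snhg18* 1 (r = 0.497). The correlation of si-NC 1 with si-*Snhg18* 3 was 0.186, so pairing libraries 1 and 3 the other way would also meet the rule. The rule thus cannot decide which of these libraries belong together. Alternatives were DESeq2 1.42.0, RLE factors, no TMM factors, other count filters, the likelihood ratio test, limma-voom (limma 3.58.1), the block and leaving out each library. DESeq2 with the block and leaving out both libraries numbered 2 were added after seeing the data.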

Additional observations from a re-analysis of the deposited data

How the results depend on the processing

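The number of members called, 0 of 10 with edgeR's quasi-likelihood test, was 0 with RLE factors (7.28% of all genes called), without TMM factors (7.60%) and with limma-voom (7.13%). It was 1 (*Mfap4*) with a minimum count of 30 (9 members tested, since *Eln* was dropped, and 9.25% of all genes called), with no filter (3.51%) and with the likelihood ratio test (9.22%). It was 2 with DESeq2 (7.38%), 6 with the replicate block (27.2%), 6 with DESeq2 and the block (12.5%), and 8 without both libraries numbered 2 (27.6%). The shares for DESeq2, with or without the block, and for no filter are over 25015 genes, including those the read filter removes. They cannot be set beside the shares over the filtered genes. Leaving out 1 library at a time gave 0 to 8 members, with 8 only without si-*Snhg18* 2 (22.1% of all genes called). The fits with 0 members called no more than 2.16% of all genes. Over all tested genes 1069 were called without the block, 3954 with it, 1846 with DESeq2, and 0 to 3282 when 1 library was left out. Of the genes in the 4 other lists, 6 were called without the block, 4 without TMM factors, 20 with the block, 10 with DESeq2, 16 with DESeq2 and the block, 20 without both libraries numbered 2, and 0 to 15 when 1 library was left out. The number of members that were lower ranged from 7 to 9 when 1 library was left out. The difference in log2 ratio then ranged from 0.50 to 0.79 for *Loxl1* over *Lox*, from 0.54 to 1.15 for *Loxl2* over *Lox*, from 0.39 to 0.79 for *Efemp2* over *Fbln5*, and from −1.98 to 0.084 for *Fbn2* over *Fbn1*. For *Fbn2* the log2 fold change ranged from −2.32 to 0.51 and for *Loxl1* from −0.083 to 0.13, the 2 members whose direction turned, and for *Eln* from −3.19 to −0.25. The cause of these differences was not tested. *Eln* and *Fbn2* had 3 and 5 reads in their lowest libraries, and library 2 lay outside the Poisson intervals of libraries 1 and 3 in each group.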

Other observations

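The following elastic fibre genes outside the members were chosen after their values were seen. *Efemp1*, which encodes fibulin-3, was at 462, 959 and 457 CPM in si-NC libraries 1 to 3 and at 189.8, 564 and 213 CPM in the si-*Snhg18* libraries of the same numbers. Library 2 was the highest in both groups, and each si-*Snhg18* library lay below its numbered partner. Its log2 fold change was −0.96 without the replicate block (edgeR adjusted p = 0.293) and −1.05 with it (adjusted p = 0.000828). *Emilin2*, a glycoprotein related to *Emilin1*, was higher in all 3 si-*Snhg18* libraries (275, 306 and 287 CPM) than in the si-NC libraries (238, 263 and 243 CPM), and it passed the test only with the block (log2 fold change 0.22, adjusted p = 0.127 without and 0.0206 with it). *Ltbp4*, whose protein binds fibulin-5, was at 34.4 ± 9.73 CPM in si-NC and 25.3 ± 6.20 CPM in si-*Snhg18* (SD, n = 3), a log2 fold change of −0.45 without the block (edgeR adjusted p = 0.332) and −0.44 with it (adjusted p = 0.0324). *Loxl4*, unlike *Lox*, was lowest in library 2 of each group (274, 119.6 and 327 CPM in si-NC, and 459, 110.1 and 252 CPM in si-*Snhg18*), and no change between the groups was detectable beyond that spread (log2 fold change 0.19, SE 0.56, edgeR adjusted p = 0.866).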
